A study of Mus musculus with 11 samples.

Results

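The 10 genes described here encode the main protein-folding machinery of the endoplasmic reticulum (ER). They are the chaperones Hspa5, Hyou1, Dnajb9 and Hsp90b1, the lectin chaperones Calr and Canx, the disulfide isomerases Pdia3, Pdia4 and Pdia6, and the transcription factor gene Xbp1. They were chosen by name as a functional family and matched through their mouse Ensembl gene identifiers. All 10 were found among the 22104 gene identifiers of the deposited table, and all 10 passed the filter on low values. RNA was sequenced in 11 libraries of primary myoblasts, the proliferating precursors of muscle fibres, grown from the muscle named TA in the study's description, of C57BL/6 mice about 8 weeks old. The groups were Bmal1-/- cells kept for 6 h at 1% O2 (hypoxia, 3 libraries), Bmal1-/- cells at 21% O2 (normoxia, 3 libraries), wild-type cells at 1% O2 (3 libraries) and wild-type cells at 21% O2 (2 libraries). Bmal1, listed under its older symbol Arntl, encodes an activator of the circadian clock that binds E-box sequences. Neither the deleted stretch of Bmal1 nor the origin of a group's libraries, from separate animals or cultures or not, is given. P-values hence reflect library-to-library spread only, and that spread could be technical.

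Proteins that enter the ER fold with the help of several systems. BiP, the product of Hspa5, holds unfolded chains with its cofactors. Calnexin and calreticulin hold sugar-bearing chains, and the disulfide isomerases form and rearrange disulfide bonds with oxidising power that ERO1 oxidases draw from oxygen. When unfolded protein accumulates, the sensors IRE1, PERK and ATF6 start the unfolded protein response, in which ATF6 and spliced XBP1 raise the chaperone genes. Myoblasts and muscle secrete matrix proteins and make many surface receptors, and so use this machinery continuously.

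The letters through which ATF6 is known to act are the ER stress response element, made of CCAAT, then 9 bases of any kind, then CCACG. It was searched for on both strands of RefSeq promoter windows (build GRCm38.p6, 250 bases before to 50 bases after each gene's start), and 9 of the 10 genes had a window. The element was present in 5 of these 9, against 37 of 27025 genes with a window (0.137%). In the 8 lists of other ER genes described below, it was in 0% to 22.2% of the genes with a window. The highest share was that of the BiP cofactors (2 of 9). The element is shown as the known site of ATF6 action, and these shares are a description, not a test. Of its carriers among the 10 genes, Hsp90b1 and Calr were each called in 1 comparison below, and Hspa5, Canx and Pdia6 in none. Pdia3, whose window lacks it, was called by edgeR and DESeq2 between genotypes in hypoxia. A link between the element and these differences was not tested. Each line is read 5′ to 3′ on the strand that carries CCAAT, with 10 bases on each side, and the capitals mark both conserved blocks.
Hspa5 (chr2:34772025-34772043, strand of the gene): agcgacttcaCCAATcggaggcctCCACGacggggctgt
Hsp90b1 distal (chr10:86705638-86705656, strand of the gene): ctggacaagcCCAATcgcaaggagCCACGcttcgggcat
Hsp90b1 proximal (chr10:86705533-86705551, opposite strand): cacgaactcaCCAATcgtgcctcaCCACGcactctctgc
Calr (chr8:84847075-84847093, opposite strand): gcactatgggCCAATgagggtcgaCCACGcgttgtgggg
Canx (chr11:50325800-50325818, strand of the gene): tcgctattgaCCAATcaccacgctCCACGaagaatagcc
Pdia6 (chr12:17266491-17266509, strand of the gene): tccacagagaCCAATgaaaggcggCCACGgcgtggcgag

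Counted from the RefSeq starts, which differ from the GENCODE gene limits given further on, these elements began 65 bases before the start of Hspa5, 212 and 107 before that of Hsp90b1, 162 before that of Calr, 145 before that of Canx and 98 before that of Pdia6. The windows of Hspa5, Hsp90b1 and Calr are printed whole, in the direction of the gene, to show the element in its setting, with the 19 bases from CCAAT to CCACG (or their reverse complement) in capitals.
Hspa5 (chr2:34771840-34772139, plus strand): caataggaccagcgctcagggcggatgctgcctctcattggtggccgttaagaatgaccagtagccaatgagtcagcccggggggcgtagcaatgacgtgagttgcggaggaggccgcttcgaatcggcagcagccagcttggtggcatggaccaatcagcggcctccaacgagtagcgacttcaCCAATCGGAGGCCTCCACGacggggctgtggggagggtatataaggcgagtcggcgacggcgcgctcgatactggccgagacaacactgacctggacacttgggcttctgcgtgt
Hsp90b1 (chr10:86705395-86705694, minus strand): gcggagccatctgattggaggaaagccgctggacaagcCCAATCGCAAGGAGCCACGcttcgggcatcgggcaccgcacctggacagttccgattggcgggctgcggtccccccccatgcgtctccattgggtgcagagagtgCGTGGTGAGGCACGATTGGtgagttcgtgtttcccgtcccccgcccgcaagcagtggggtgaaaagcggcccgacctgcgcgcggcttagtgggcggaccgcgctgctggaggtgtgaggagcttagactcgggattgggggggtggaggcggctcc
Calr (chr8:84846882-84847181, minus strand): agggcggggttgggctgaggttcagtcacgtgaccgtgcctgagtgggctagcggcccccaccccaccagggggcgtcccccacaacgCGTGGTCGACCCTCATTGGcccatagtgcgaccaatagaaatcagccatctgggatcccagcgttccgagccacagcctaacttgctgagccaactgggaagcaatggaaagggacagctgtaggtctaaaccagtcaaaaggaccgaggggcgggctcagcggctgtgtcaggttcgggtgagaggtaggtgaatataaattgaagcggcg

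Other short motifs were counted in the same windows. The second ER stress response element (ATTGG, 1 base of any kind, CCACG) was in 0 of the 9 windows and in 0.0444% of all genes with a window. The core of the unfolded protein response element, TGACGTGG, was in 0 of the 9 and in 0.714% of genes. The core bound by hypoxia-inducible factors, ACGTG or GCGTG, was in 7 of the 9 and in 46.7% of genes. In the 8 lists of other ER genes described below, it was in 75% to 100% of the genes with a window, so it was not particular to the family. The E-box CACGTG, the kind of letters that BMAL1 binds, was in 2 of the 9 windows (Calr and Dnajb9) and in 8.09% of genes. In the same 8 lists it was in 6.25% to 25% of the genes with a window, so it was not particular to the family either. The hypoxia core lies inside the E-box and inside TGACGTGG, and can overlap the CCACG block when the next base is C or T. These matches are letters in a window, not measured binding.

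Recovered reads totalled 18707697 to 33613328 per library. Every hypoxia library had at least 23027613 reads and every normoxia library at most 21451760, so depth moved with oxygen; its part in the oxygen results was not tested. Values are read counts divided by the authors' size factor, called normalised read counts here. Arntl had 128, 134 and 128 normalised read counts in Bmal1-/- hypoxia and 109, 117 and 98.8 in Bmal1-/- normoxia, against 325, 328 and 322 for wild-type cells in hypoxia and 264 and 267 in normoxia, so every library stood on the side its label gives. All 6 hypoxia check genes (Vegfa, Slc2a1, Pdk1, Bnip3, Adm, Egln3) rose in hypoxia in both genotypes, with median log2 changes of 2.14 in Bmal1-/- cells and 2.21 in wild-type cells. All 10 myoblast markers searched for were expressed, with means over the 11 libraries from 1380 to 21300 normalised read counts. Of 8 endothelial markers, 6 averaged under 10, among them Cdh5, Kdr and Tek, and the 4 leukocyte markers in the table summed to at most 245.

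The family was expressed at high levels. Its 10 genes together took 0.351% to 0.393% of all reads in each library. Per kilobase of exon, over all 11 libraries, Hspa5 stood at 4257 ± 219 normalised read counts, Hsp90b1 at 3994 ± 282 and Calr at 3853 ± 231 (SD, n = 11), and the ranges of neighbours in this order overlapped. Canx followed at 2984 ± 137 per kilobase, apart from Calr above it and Pdia6 below it. Pdia6 at 2252 ± 91.6 and Pdia4 at 2044 ± 53.4 per kilobase overlapped, and Pdia3 at 1769 ± 113 lay below both. Hyou1 at 712 ± 28.4 and Xbp1 at 676 ± 20.2 per kilobase overlapped, and Dnajb9 was lowest at 143 ± 11.6. With the longest transcript as the length instead of all exons, Calr led at 5081 per kilobase, before Hsp90b1 at 4998 and Hspa5 at 4902, and Pdia6 at 3877 stood above Canx at 3271.

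Over the 11 libraries, the coefficient of variation was 2.61% for Pdia4, the steadiest of the 10, and 8.09% for Dnajb9, the least steady. The median was 11.1% over all tested genes and 6.11% over the 3531 tested genes with a mean of at least 1000 normalised read counts. Hsp90b1 (7.06%) and Pdia3 (6.39%) lay above 6.11%. Calr (5.98%), Hspa5 (5.15%), Canx (4.6%), Pdia6 (4.07%), Hyou1 (3.99%) and Xbp1 (2.99%) lay below it. The highest library held 1.35 times the value of the lowest for Dnajb9 and at most 1.24 times for each of the other 9. The median of this ratio was 1.43 over all tested genes and 1.22 over those with a mean of at least 1000.

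**Figure D1:**
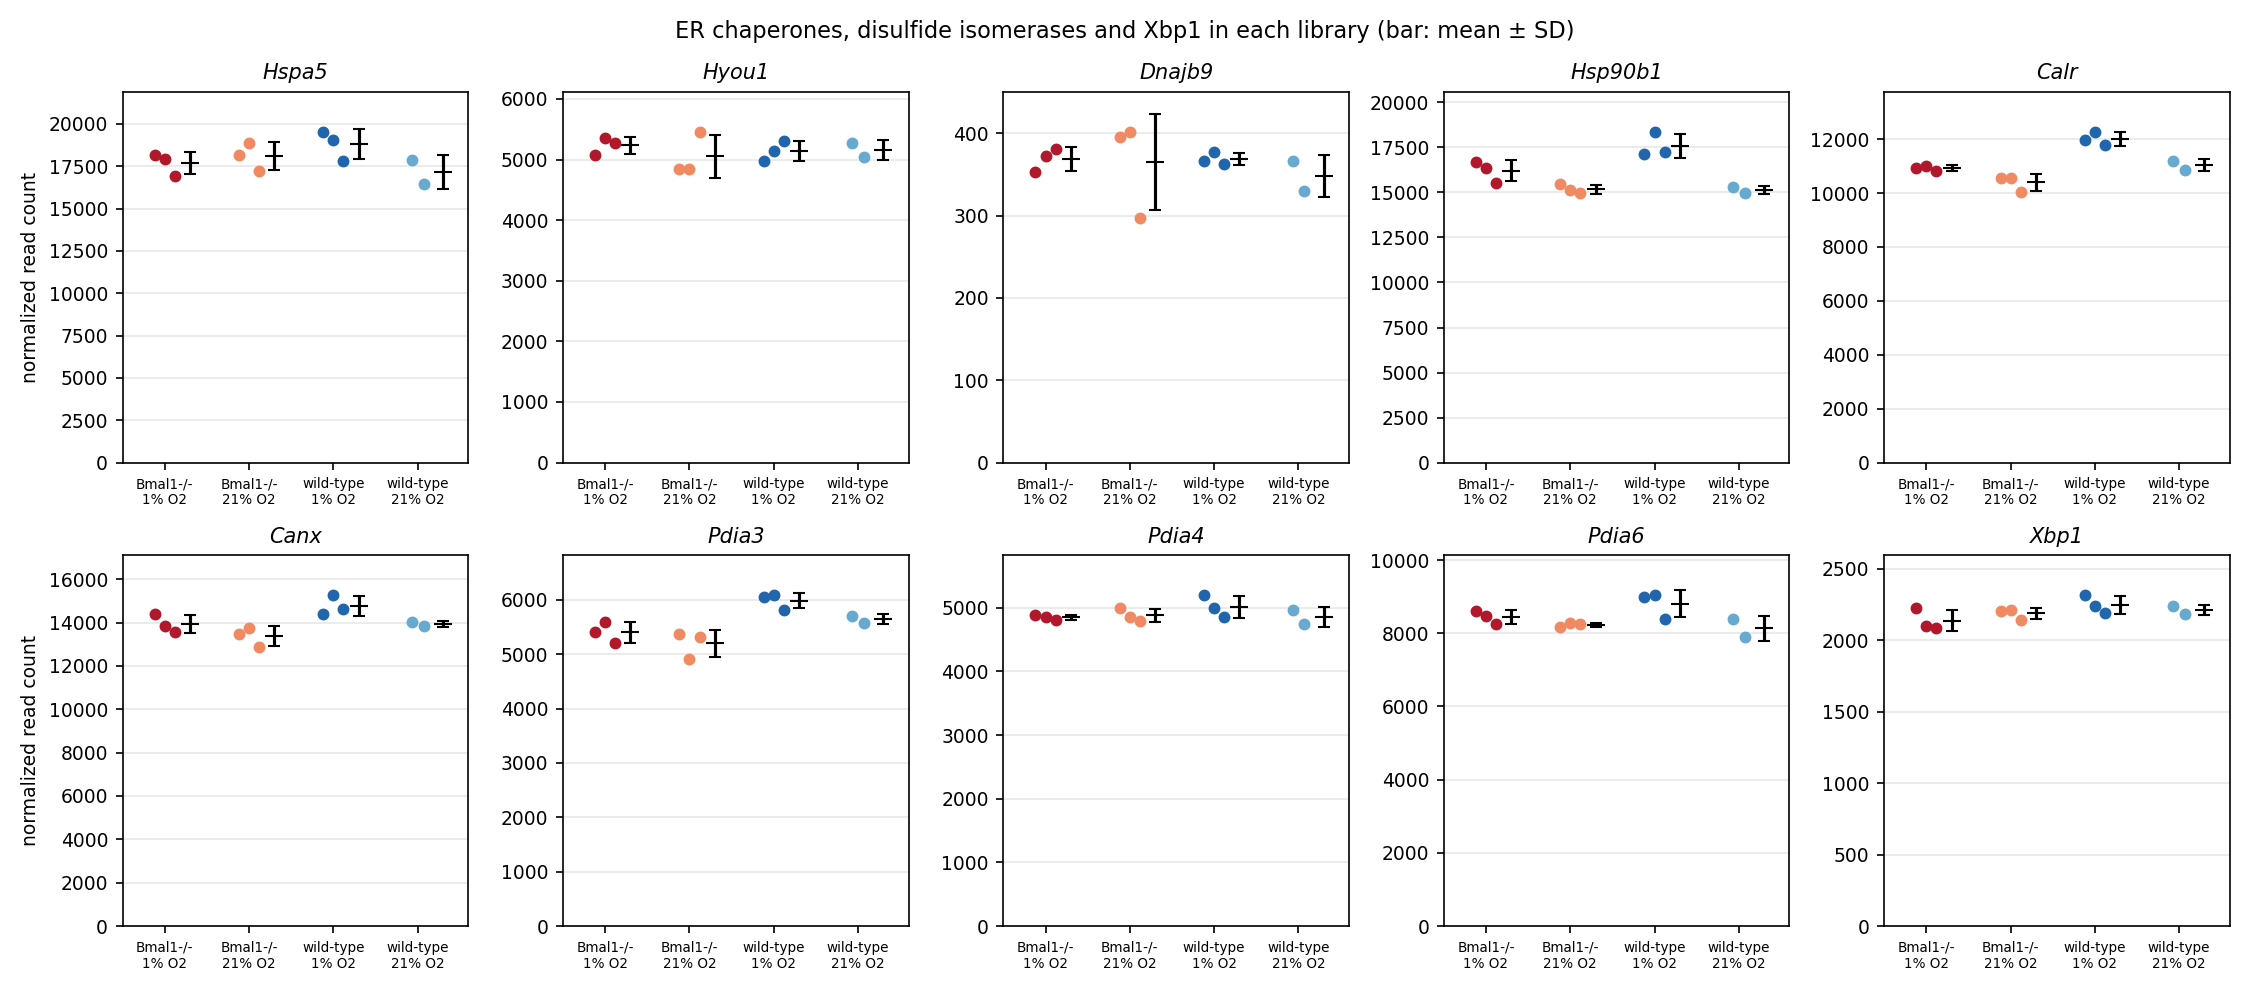
Normalised read counts (vertical axes, from 0) of the 10 genes in each of the 11 libraries, with Bmal1-/- hypoxia, Bmal1-/- normoxia, wild-type hypoxia and wild-type normoxia from left to right. Points are libraries and bars are means ± SD; the levels are nearly flat, with Hsp90b1 highest in wild-type hypoxia (17145 to 18373) and the low Dnajb9 value of 297 in 1 Bmal1-/- normoxia library.

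In the BiP system, levels were close in all 4 groups. Hspa5, which encodes BiP, the HSP70 chaperone of the ER (chr2:34771970-34777547), had 18171, 17924 and 16926 normalised read counts in Bmal1-/- hypoxia and 18176, 18887 and 17232 in Bmal1-/- normoxia. Wild-type cells had 19542, 19055 and 17813 in hypoxia and 17863 and 16431 in normoxia. The groups overlapped in all 4 comparisons, and the log2 change in hypoxia was -0.03 ± 0.05 (SE) in Bmal1-/- cells (adjusted p = 0.778, limma) and 0.13 ± 0.05 in wild-type cells (adjusted p = 0.293). Hyou1, an HSP110-type exchange factor that recharges BiP (chr9:44379490-44392369), ranged from 5073 to 5350 in Bmal1-/- hypoxia, from 4848 to 5460 in Bmal1-/- normoxia, from 4979 to 5305 in wild-type hypoxia and was 5280 and 5042 in wild-type normoxia. Its change in wild-type hypoxia was -0.00 on the log2 scale, with a 95% interval of -8.24% to 8.25%. Dnajb9, a J-domain cofactor that directs BiP to its clients and is a known target of spliced XBP1 (chr12:44205559-44210326), had 353, 373 and 381 in Bmal1-/- hypoxia and 395, 402 and 297 in Bmal1-/- normoxia. Wild-type cells had 366, 377 and 363 in hypoxia and 366 and 330 in normoxia. The groups overlapped in every comparison, and the value of 297 was the lowest of all 11.

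Hsp90b1, the HSP90 chaperone of the ER, also called GRP94 (chr10:86690209-86705509), showed the clearest oxygen difference. In Bmal1-/- cells it had 16697, 16380 and 15546 normalised read counts in hypoxia, against 15458, 15110 and 14961 in normoxia. In wild-type cells it had 17145, 18373 and 17237 in hypoxia, against 15283 and 14965 in normoxia. Every hypoxia library thus stood above every normoxia library within each genotype. The log2 change was 0.09 ± 0.04 (SE) in Bmal1-/- cells (adjusted p = 0.218, limma). In wild-type cells it was 0.22 ± 0.04, a rise of 9% to 23.9% at the 95% interval (adjusted p = 0.0156, limma). The wild-type call did not survive leaving out wild-type hypoxia replicate 2 (adjusted p = 0.0589) or, at 21% O2, wild-type replicate 1 (0.0731) or 2 (0.159). It also failed in limma without the variance trend (0.117) and in a fit of the wild-type libraries alone (0.0779), within a range of 0.000277 to 0.117 over the alternatives that kept all libraries of the comparison. The difference between the oxygen effects, Bmal1-/- minus wild-type, was -0.12 ± 0.06 (adjusted p = 0.917). Other annotated genes overlap Hsp90b1, the largest being 1810014B01Rik on the opposite strand with a mean of 111 normalised read counts; whether counting used strand is not given in the sources used here.

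Of the lectin chaperones, calreticulin fell in Bmal1-/- hypoxia against wild-type hypoxia. Calr encodes calreticulin, which binds sugar-bearing chains and stores calcium (chr8:84841850-84846934). It had 10948, 11021 and 10816 normalised read counts in Bmal1-/- hypoxia, against 11952, 12277 and 11775 in wild-type hypoxia. At 21% O2 it had 10569, 10572 and 10048 in Bmal1-/- cells, against 11208 and 10872 in wild-type cells. All Bmal1-/- libraries stood below all wild-type libraries at each oxygen level. In hypoxia Calr fell by 0.13 on the log2 scale (SE 0.03, 95% interval -13.5% to -4.14%, adjusted p = 0.0242, limma). In normoxia the log2 difference was -0.09 ± 0.04 (adjusted p = 0.191). The hypoxia call was lost without Bmal1-/- hypoxia replicate 1, 2 or 3 (adjusted p = 0.0678, 0.067 and 0.0864), without wild-type hypoxia replicate 1 or 2 (0.0539 and 0.101), and in limma without the variance trend (0.109); the alternatives that kept every library ran from 0.0039 to 0.109. The pseudogene Calr-ps is not among the identifiers of the deposited table, and how its reads were counted is not given.

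Canx, the membrane-bound partner calnexin (chr11:50293961-50325673), had 14373, 13819 and 13577 normalised read counts in Bmal1-/- hypoxia, against 14406, 15260 and 14613 in wild-type hypoxia. At 21% O2 it had 13486, 13760 and 12852 in Bmal1-/- cells, against 14047 and 13830 in wild-type cells. Here too the genotypes did not overlap at either oxygen level, but the closest values were 14373 and 14406. The log2 differences, Bmal1-/- over wild-type, were -0.08 ± 0.04 in hypoxia (adjusted p = 0.225) and -0.06 ± 0.04 in normoxia (adjusted p = 0.428).

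Among the isomerases, Pdia3, also called ERp57, which works with calnexin and calreticulin on sugar-bearing chains (chr2:121413775-121438687) and stood below wild type without overlap as the lectins did. It had 5405, 5601 and 5216 normalised read counts in Bmal1-/- hypoxia, against 6047, 6087 and 5823 in wild-type hypoxia. At 21% O2 it had 5370, 4919 and 5312 in Bmal1-/- cells, against 5710 and 5578 in wild-type cells. No Bmal1-/- library reached a wild-type library of the same oxygen level. The log2 difference in hypoxia was -0.15 ± 0.04 with an adjusted p of 0.0503 by limma, just outside the threshold of 0.05. It passed with a pseudocount of 5 (0.0491), a filter at 50 (0.044), TMM-scaled values (0.0464), edgeR (0.0464), DESeq2 (0.023) and without Bmal1-/- normoxia replicate 2 (0.0343). In normoxia it was -0.12 ± 0.05 (adjusted p = 0.152).

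Pdia4, also called ERp72, an isomerase with several thioredoxin-like domains (chr6:47796141-47813430), ranged from 4810 to 4890 in Bmal1-/- hypoxia, 4798 to 4994 in Bmal1-/- normoxia, 4850 to 5197 in wild-type hypoxia, and was 4963 and 4737 in wild-type normoxia. Pdia6, or P5, an isomerase that associates with BiP (chr12:17266545-17284770), ranged from 8253 to 8617, 8178 to 8270 and 8383 to 9041 in the same 3 groups of 3, and was 8384 and 7892 in wild-type normoxia. Both overlapped in every comparison. Xbp1 (chr11:5520659-5525893) encodes the factor whose mRNA the sensor IRE1 splices. It had 2224, 2103 and 2085 in Bmal1-/- hypoxia and 2205, 2211 and 2144 in Bmal1-/- normoxia, with 2315, 2241 and 2189 for wild-type cells at 1% O2 and 2238 and 2186 at 21% O2. Its groups overlapped too, and the log2 change in hypoxia was -0.03 ± 0.04 in Bmal1-/- cells and 0.02 ± 0.05 in wild-type cells. Gene-level values do not separate spliced from unspliced Xbp1, so splicing was not measured.

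**Figure D2:**
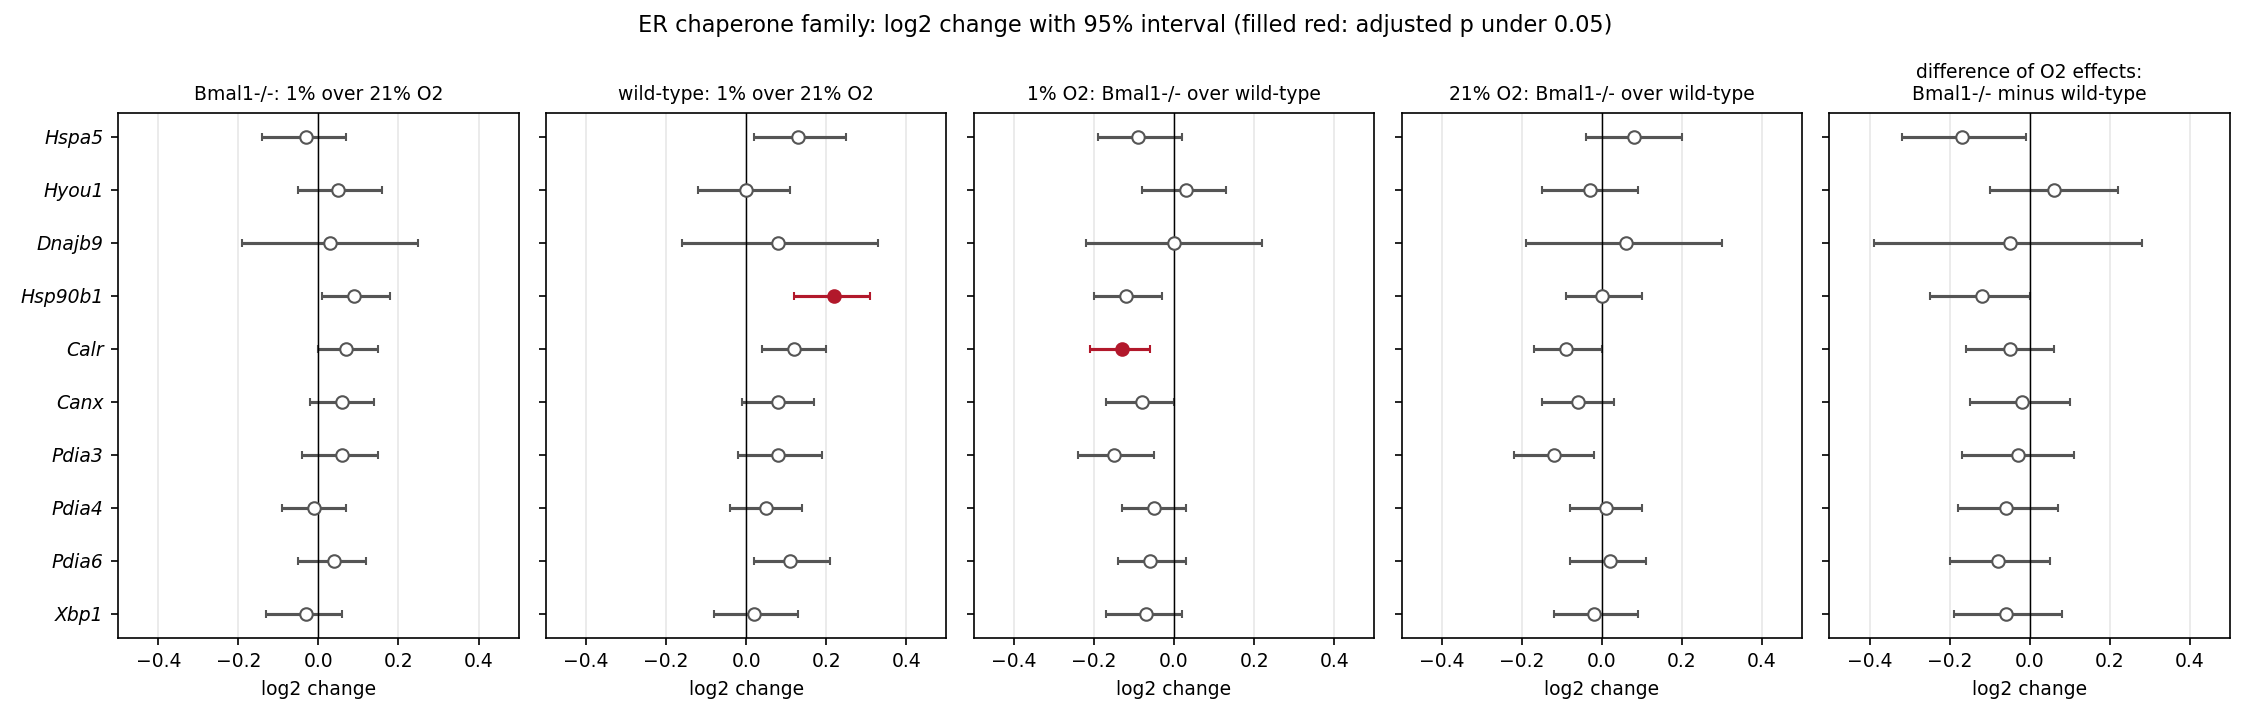
Log2 change (horizontal axis) with its 95% interval for each of the 10 genes, in 1% over 21% O2 in Bmal1-/- and in wild-type cells, Bmal1-/- over wild-type in 1% and in 21% O2, and the difference between the oxygen effects. Filled red points passed an adjusted p of 0.05, which were Hsp90b1 (0.22) in wild-type hypoxia and Calr (-0.13) in Bmal1-/- over wild-type hypoxia; the widest intervals belong to Dnajb9.

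Across the family, the effect of hypoxia was small in both genotypes. In Bmal1-/- cells, 0 of 10 genes were called in hypoxia by limma, edgeR or DESeq2, with 1 (Hsp90b1) at an unadjusted p under 0.05; of all 14729 tested genes, 3.15% were called higher, 0.937% lower and 4.09% in either direction. Log2 changes ran from -0.03 to 0.09 with a median of 0.05, against -0.005 over all tested genes. Hsp90b1 and Calr had all hypoxia libraries above all normoxia libraries, against 11.9% of tested genes. The 95% intervals lay between -12.4% and 19%. The family sum averaged 85182 ± 2029 in Bmal1-/- hypoxia and 82957 ± 1385 in Bmal1-/- normoxia (SD, n = 3 each). In the same comparison 2 of 7 tested fibroblast markers rose, Cd34 and Col3a1 (the Col3a1 call, adjusted p = 0.0414, was lost in 8 of 11 fits without 1 library, 0.0527 to 0.149), and 1 of 10 myoblast markers fell (Vcam1, by 0.25), and their part in these values was not tested.

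In wild-type hypoxia Hsp90b1 rose and 0 fell, so 1 of 10 was called higher, against 1.7% of tested genes; 0.468% were called lower and 2.17% in either direction. Log2 changes ran from -0.00 to 0.22 with a median of 0.08, against a median of -0.003 over all tested genes, and 9 of 10 were above 0. Of the 10, 4 had hypoxia libraries all above the normoxia libraries (Hsp90b1, Calr, Canx and Pdia3), against 15.4% of tested genes. At an unadjusted p under 0.05 there were 4, namely Hspa5, Hsp90b1, Calr and Pdia6. The share of all tested genes at this unadjusted cut is not given, so the count cannot show whether there was an excess. The 95% intervals of all 10 lay between -10.7% and 25.8%, so for none did the interval reach a change as large as the 3.27-fold rise of Ero1l described below. Summed over the family, values averaged 90717 ± 2262 normalised read counts in wild-type hypoxia and 83602 ± 2460 in wild-type normoxia (SD, n = 3 and n = 2).

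Between genotypes in hypoxia, Calr fell and 0 rose, so 1 of 10 was called lower, against 5.61% of tested genes (3.33% were called higher and 8.95% in either direction); edgeR and DESeq2 each called 2, Calr and Pdia3. Log2 differences, Bmal1-/- over wild-type, ran from -0.15 to 0.03 with a median of -0.08, against 0.004 over all tested genes, and 8 of 10 were below 0. Hsp90b1, Calr, Canx and Pdia3 had all Bmal1-/- libraries below all wild-type libraries, against 13.9% of tested genes. For Hsp90b1 the log2 difference was -0.12 ± 0.04 (adjusted p = 0.0793). In normoxia, 0 of 10 were called by limma, edgeR or DESeq2, against 3.44% of tested genes called higher, 5.66% lower and 9.09% in either direction by limma. At an unadjusted p under 0.05 there were 2 (Calr and Pdia3). The median was -0.01, the log2 differences ran from -0.12 to 0.08, and Calr, Canx and Pdia3 were lower without overlap, against 19.6% of tested genes. The intervals lay between -15.3% and 16.7% in hypoxia and between -14.3% and 23.4% in normoxia. Both genotype comparisons and both oxygen comparisons share libraries, so these values are given side by side only.

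The effect of oxygen was not shown to differ between genotypes for any of the 10. By limma, edgeR or DESeq2, 0 were called for the difference between the oxygen effects, with 1 (Hspa5) at an unadjusted p under 0.05; limma called 0.00679% of all tested genes. Hspa5 had the largest estimate, -0.17 ± 0.07, Bmal1-/- minus wild-type (adjusted p = 0.917). The intervals over the 10 genes ran from -0.39 to 0.28 on the log2 scale.

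Markers of other cells moved with genotype beside these values. Summed over 8 fibroblast markers in the table, values ranged from 13530 to 14013 in Bmal1-/- hypoxia and from 12127 to 12467 in Bmal1-/- normoxia, against 16868 to 17301 in wild-type hypoxia and 15598 to 17126 in wild-type normoxia. Of the 7 tested, 5 fell in each genotype comparison, against 5.61% of all tested genes in hypoxia and 5.66% in normoxia, and DESeq2 called 5 lower in hypoxia and 3 in normoxia. The calls of Lum in hypoxia and of Dcn and Ly6a in normoxia were lost in fits without 1 library (Lum without wild-type hypoxia replicate 1, 2 or 3, 0.0576 to 0.0642; Dcn without Bmal1-/- normoxia replicate 2 or 3 or wild-type normoxia replicate 2, 0.0723 to 0.279; Ly6a without wild-type normoxia replicate 1, 0.148). Those that fell included Pdgfra, a receptor of fibro-adipogenic cells, by 1.29 in hypoxia and by 1.38 in normoxia on the log2 scale. Col3a1, a fibrillar collagen that passes through the ER and gives most of that sum, fell by 0.27 and by 0.36. Summed pericyte markers ranged from 3380 to 3500 and from 3115 to 3349 in Bmal1-/- hypoxia and normoxia, against 5117 to 5394 and 5160 to 5910 in wild-type hypoxia and normoxia. Of 7 tested, Cspg4, Pdgfrb and Mcam fell in each genotype comparison, while 2 in hypoxia and 3 in normoxia had log2 differences above 0, none of them called, among them Rgs5 (0.12 in hypoxia, 0.24 in normoxia) and Abcc9 (0.66 and 0.53). Summed myoblast markers ranged from 63258 to 66150 in Bmal1-/- hypoxia and from 63462 to 66778 in Bmal1-/- normoxia, against 57029 to 60448 and 60941 to 61718 in wild-type hypoxia and normoxia. Of the 10, 3 were called higher in hypoxia (Myf5, Itga7 and Chrna1), against 3.33% of all tested genes. In normoxia 2 were called higher (Myf5 and Chrna1), against 3.44%. Chrna1 alone averaged 22656 and 22539 in Bmal1-/- hypoxia and normoxia, against 19852 and 19698 in wild-type hypoxia and normoxia. Of the 10 myoblast markers, 7 in hypoxia and 5 in normoxia had log2 differences above 0, and Myod1 stood at 0.05 in hypoxia and -0.13 in normoxia, neither called. Kcnj8 and Myh11 among the pericyte markers and Dpt among the fibroblast markers averaged under 10, and no marker was at 0 in every library. The part of these markers in the lower Calr and Pdia3 values was not tested. In bulk RNA, fewer cells of a type and less RNA per cell cannot be told apart.

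The rest of the ER folding and quality-control system was followed in 8 lists with 114 genes, of which 112 were in the table and 107 were tested. In Bmal1-/- hypoxia 3 rose and 0 fell, against 3.15% and 0.937% of all tested genes, with 18 at an unadjusted p under 0.05, while DESeq2 called 1 lower (Atf4). In wild-type hypoxia 3 rose and 0 fell, against 1.7% and 0.468% of all tested genes, and Ero1l stood far from the others; 17 had an unadjusted p under 0.05 in either direction, and edgeR called 2 up and DESeq2 3. The median log2 change over the 107 was 0.01 in Bmal1-/- hypoxia and 0.03 in wild-type hypoxia, against -0.005 and -0.003 over all tested genes.

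Ero1l, now named Ero1a, is the oxidase that restores the oxidised state of protein disulfide isomerase. It had 3587, 2914 and 2700 normalised read counts in Bmal1-/- hypoxia, against 1153, 1193 and 1117 in Bmal1-/- normoxia. In wild-type cells it had 4409, 3080 and 3382 in hypoxia, against 1141 and 1053 in normoxia. The lowest hypoxia library exceeded the highest normoxia library in each genotype by more than the spread within groups. Ero1l rose 2.64-fold in Bmal1-/- cells (adjusted p = 6.35e-06, limma) and 3.27-fold in wild-type cells (adjusted p = 3.05e-06). The difference between these effects was -0.31 on the log2 scale (adjusted p = 0.917). The other 8 thiol oxidases and peroxidases were not called in either oxygen comparison, among them Ero1lb, a relative of Ero1l, at -0.10 in Bmal1-/- and -0.01 in wild-type cells on the log2 scale.

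P4hb, which encodes protein disulfide isomerase itself and is also a subunit of collagen prolyl 4-hydroxylase, rose less. It had 11805, 11165 and 11501 normalised read counts in Bmal1-/- hypoxia, against 9766, 9772 and 9497 in Bmal1-/- normoxia. In wild-type cells it had 13463, 12275 and 12699 in hypoxia, against 10810 and 10874 in normoxia. The oxygen levels did not overlap in either genotype. The log2 change was 0.25 ± 0.04 in Bmal1-/- cells (adjusted p = 0.00224, limma) and 0.24 ± 0.04 in wild-type cells (adjusted p = 0.00835). The wild-type call failed when either wild-type library at 21% O2 was left out, replicate 1 (adjusted p = 0.075) or 2 (0.0731), in a fit of the wild-type libraries alone (0.0628) and without the variance trend (0.0872), within 4.35e-05 to 0.0872 over the alternatives with all libraries. Among the 14 tested members of the wider isomerase list, Tmx1, a membrane-bound thioredoxin-like protein, also rose in wild-type hypoxia by 0.28 on the log2 scale (adjusted p = 0.0477); this call was lost in 9 of 11 fits that left out 1 library (adjusted p 0.0564 to 0.398) and kept without wild-type hypoxia replicate 3 or wild-type normoxia replicate 1. Itpr3, a calcium channel of the ER, rose in Bmal1-/- hypoxia by 0.45 (adjusted p = 0.0356), a call lost without Bmal1-/- hypoxia replicate 2 (0.139) or 3 (0.0966) and Bmal1-/- normoxia replicate 1 (0.129) or 2 (0.0782). The 8-list count of 3 in wild-type hypoxia was 1 without wild-type normoxia replicate 2.

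**Figure D3:**
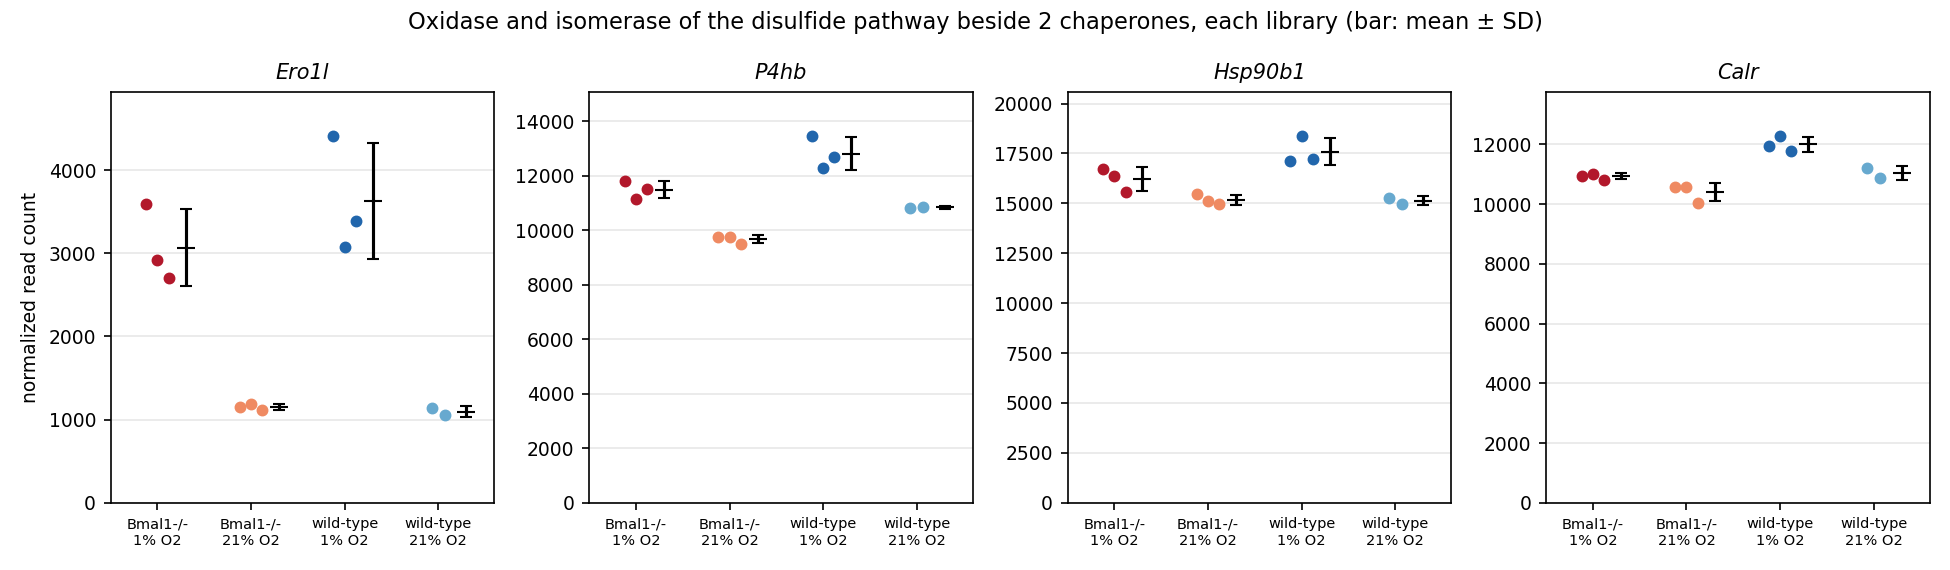
Normalised read counts (vertical axes, from 0) of Ero1l, P4hb, Hsp90b1 and Calr in each library, with Bmal1-/- hypoxia, Bmal1-/- normoxia, wild-type hypoxia and wild-type normoxia from left to right; bars are means ± SD. The hypoxia libraries of Ero1l lie between 2700 and 4409, above the normoxia libraries at 1053 to 1193, whereas the 2 chaperones differ by a small part of their level.

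Sensors and factors of the unfolded protein response were not called with oxygen by limma or edgeR. Hsp90b1, a chaperone that the response is known to raise, was called in wild-type hypoxia by both. Gene-level values do not measure whether the response was active, and its part in the Hsp90b1 call was not tested. Of 18 tested sensors and factors, limma called 0 in either genotype, against 4.09% of all tested genes in Bmal1-/- cells and 2.17% in wild-type cells. At an unadjusted p under 0.05 there were 5 in Bmal1-/- cells and 4 in wild-type cells. DESeq2 called 1, Atf4, lower in Bmal1-/- cells (adjusted p = 0.0475). Of 24 genes of ER-associated degradation, which removes misfolded protein, 0 were called by limma, edgeR or DESeq2 in either genotype, with 2 at an unadjusted p under 0.05 in each. The limma shares over all tested genes were the same 4.09% and 2.17%. At such shares, 0 calls do not set lists of 18 or 24 genes apart from other genes. Ddit3, Atf4 and Herpud1, textbook readouts of the PERK and ATF6 arms, were looked at after their values were seen, as were Trib3, Sdf2l1 and Creld2 below. Ddit3 encodes the factor CHOP. It had 170, 163 and 138 normalised read counts in Bmal1-/- hypoxia, against 166, 179 and 175 in Bmal1-/- normoxia, and 158, 143 and 127 for wild-type cells in hypoxia, against 180 and 168 in normoxia. Its log2 change was -0.14 ± 0.11 in Bmal1-/- cells (adjusted p = 0.552) and -0.29 ± 0.12 in wild-type cells (adjusted p = 0.326). Atf4, the factor translated when PERK is active, stood at -0.14 ± 0.04 in Bmal1-/- cells (adjusted p = 0.093) and -0.11 ± 0.05 in wild-type cells (adjusted p = 0.319). Herpud1, which helps degradation, stood at -0.17 ± 0.07 in Bmal1-/- cells (adjusted p = 0.235) and 0.03 ± 0.08 in wild-type cells (adjusted p = 0.908). Trib3, Sdf2l1 and Creld2, further known targets of the response, stood above 0 in both genotypes without being called. The log2 changes were 0.19 ± 0.13, 0.14 ± 0.09 and 0.13 ± 0.06 for Trib3, Sdf2l1 and Creld2 in Bmal1-/- cells (adjusted p = 0.505, 0.473 and 0.29), and 0.22 ± 0.15, 0.24 ± 0.10 and 0.16 ± 0.07 in wild-type cells (adjusted p = 0.566, 0.308 and 0.322).

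Outside the 10 genes, 14 tested genes carried the ER stress response element in their window, and 0 of these were called by limma in either oxygen comparison. Of the 10654 tested genes with a window, 343 rose and 97 fell in Bmal1-/- hypoxia, and 185 rose and 47 fell in wild-type hypoxia. With so few called, 0 calls do not set 14 genes apart from other genes. The median log2 change of the 14 was -0.073 in Bmal1-/- hypoxia and 0.064 in wild-type hypoxia.

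**Figure D4:**
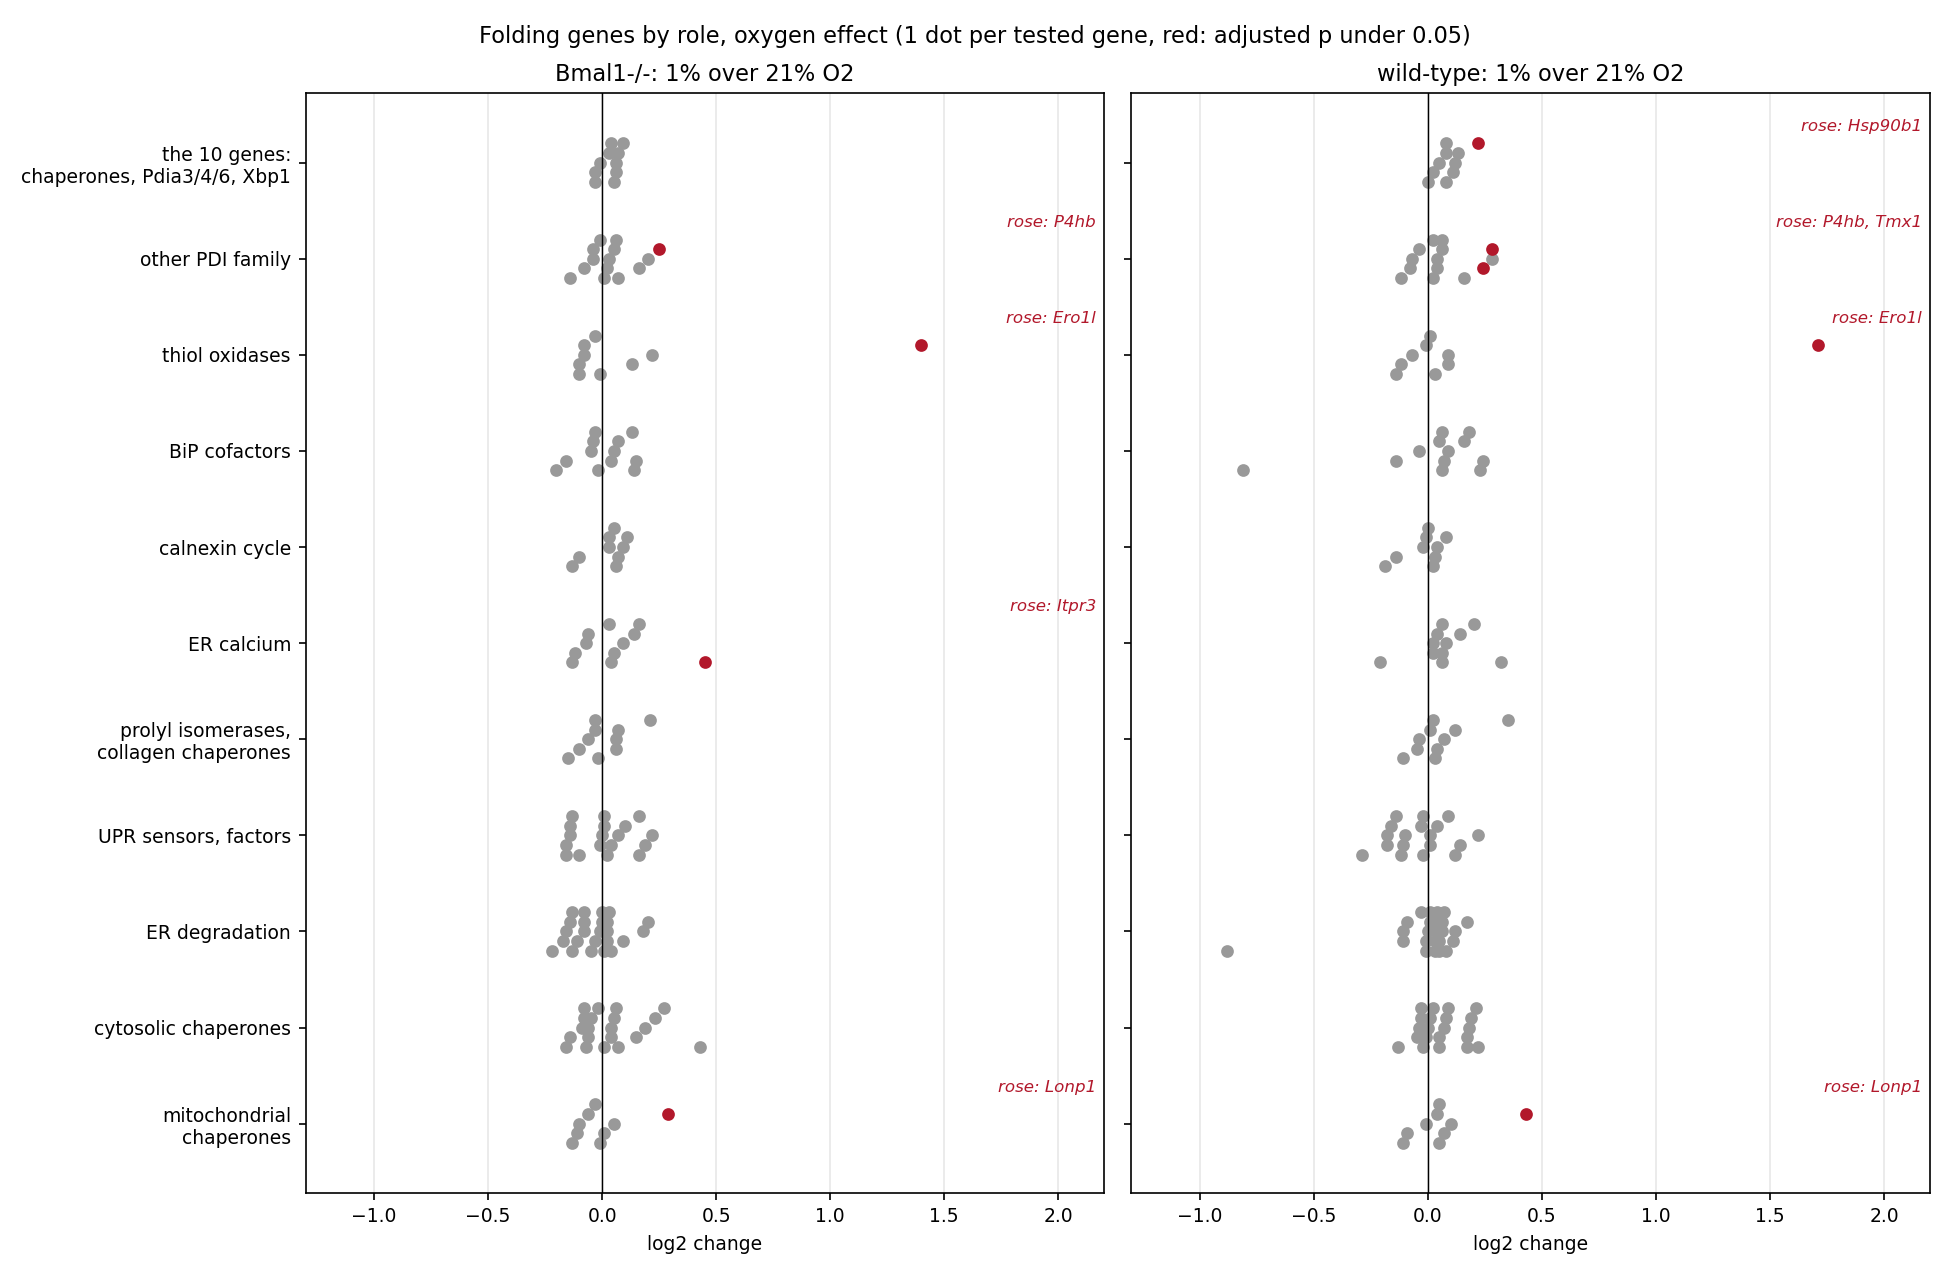
Log2 change in 1% over 21% O2 (horizontal axis) of each tested gene, by role (rows), in Bmal1-/- cells on the left and wild-type cells on the right. Red points passed an adjusted p of 0.05 and are named; Ero1l stands at 1.40 in Bmal1-/- and 1.71 in wild-type cells, while the 10 chaperone-family genes lie within 0.22 of 0.

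Between genotypes, more of these ER genes were called, most of them lower in Bmal1-/- cells. In hypoxia 3 of 107 rose (Atf6, Creb3l1 and Derl3) and 14 fell, against 3.33% and 5.61% of all tested genes; the median log2 difference was -0.06. The 14 were 6 to 9 in fits that left out any 1 of Bmal1-/- hypoxia replicates 1 to 3 and wild-type hypoxia replicates 1 and 2, and the 3 were 0 or 1 in those fits. In normoxia 0 rose and 12 fell, against 3.44% and 5.66% of all tested genes, with 32 at an unadjusted p under 0.05, and the median was -0.05. Without wild-type normoxia replicate 1 the 12 were 5, and without replicate 2 they were 2. DESeq2 called 2 higher in normoxia, Atf4 (adjusted p = 0.0346) and Herpud1 (0.0461), and edgeR 0.

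By role, the genes lower in Bmal1-/- hypoxia were 3 of 14 other isomerases (P4hb, Pdia5 and Txndc5), 3 of 9 thiol oxidases and peroxidases (Gpx8, Qsox1 and Vkorc1) and 2 of 12 BiP cofactors (Sec63 and Hspa13). They also included 2 of 11 calcium-handling genes (Calu and Rcn3), 2 of 10 prolyl isomerases and collagen chaperones (Fkbp9 and Crtap), 1 of 18 sensors and factors (Creb3l2) and 1 of 24 degradation genes (Edem1). In normoxia the lower genes were P4hb and Txndc5 among the isomerases, Gpx7, Gpx8 and Qsox1 among the thiol oxidases and peroxidases, Rcn3 and Nucb1 among the calcium-handling genes, Fkbp10 among the prolyl isomerases, Creb3l2 and Wfs1 among the sensors and factors, and Edem1 and Os9 among the degradation genes. The calnexin cycle list includes genes that trim or re-add the sugars that calnexin and calreticulin bind. Of its 9 tested genes, 0 were called by limma, edgeR or DESeq2 in any of the 5 comparisons. At an unadjusted p under 0.05 there were also 0. Of all tested genes, limma called 4.09% in Bmal1-/- hypoxia and 2.17% in wild-type hypoxia. It called 8.95% and 9.09% between genotypes in hypoxia and normoxia, and 0.00679% for the difference between oxygen effects. At such shares, 0 calls do not set a list of 9 genes apart.

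Qsox1, a secreted and Golgi thiol oxidase that puts disulfides into matrix proteins, had 712, 847 and 791 normalised read counts in Bmal1-/- hypoxia, against 1156, 1048 and 997 in wild-type hypoxia. In normoxia it had 808, 805 and 873 in Bmal1-/- cells, against 1125 and 1225 in wild-type cells. It fell by 0.45 in hypoxia (adjusted p = 0.00148, limma) and by 0.50 in normoxia (adjusted p = 0.00171) on the log2 scale. Rcn3, a calcium-binding reticulocalbin of the ER, had 1140, 1160 and 1159 in Bmal1-/- hypoxia, against 1594, 1513 and 1485 in wild-type hypoxia. It fell by 0.41 in hypoxia (adjusted p = 0.000127) and by 0.46 in normoxia (adjusted p = 0.000126). Both genes kept both calls without each library in turn. In hypoxia 3 more genes did so. These were Gpx8, an ER peroxidase (-0.30), Sec63, a BiP cofactor of the translocation channel (-0.29), and Calu, a calcium-binding protein (-0.20).

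The other calls were each lost without at least 1 library. They comprised 12 of 17 in hypoxia, lost in 2 to 8 such fits with adjusted p up to 0.169, and 10 of 12 in normoxia, lost in 1 to 10 fits with adjusted p up to 0.287. P4hb belonged to both. It fell by 0.16 in hypoxia (adjusted p = 0.0217), lost without Bmal1-/- hypoxia replicate 2 (0.105) or 3 (0.0604) or wild-type hypoxia replicate 1 (0.0857), and by 0.16 in normoxia (adjusted p = 0.031), lost without any 1 of the 5 normoxia libraries (0.064 to 0.152). Of the sensors and factors, Atf6, the factor that acts on the element printed above, had 2323, 2310 and 2364 normalised read counts in Bmal1-/- hypoxia, against 2114, 2053 and 2135 in wild-type hypoxia. It rose by 0.15 on the log2 scale (adjusted p = 0.025); this was lost without Bmal1-/- hypoxia replicate 1, 2 or 3 (0.0681, 0.068 and 0.0898) or wild-type hypoxia replicate 1 or 2 (0.0531 and 0.0996). Derl3, a degradation gene that carries the element, had 33, 26.3 and 26.6 in Bmal1-/- hypoxia, against 15.2, 18.3 and 11.7 in wild-type hypoxia. It rose by 0.90 (adjusted p = 0.0257), which was lost without Bmal1-/- hypoxia replicate 1, 2 or 3 (0.105, 0.0588 and 0.0561) or wild-type hypoxia replicate 1 or 3 (0.0596 and 0.104) and by DESeq2 (0.107). The fibroblast and pericyte marker sums given above move with genotype in the same libraries, and their part in these calls was not tested.

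**Figure D5:**
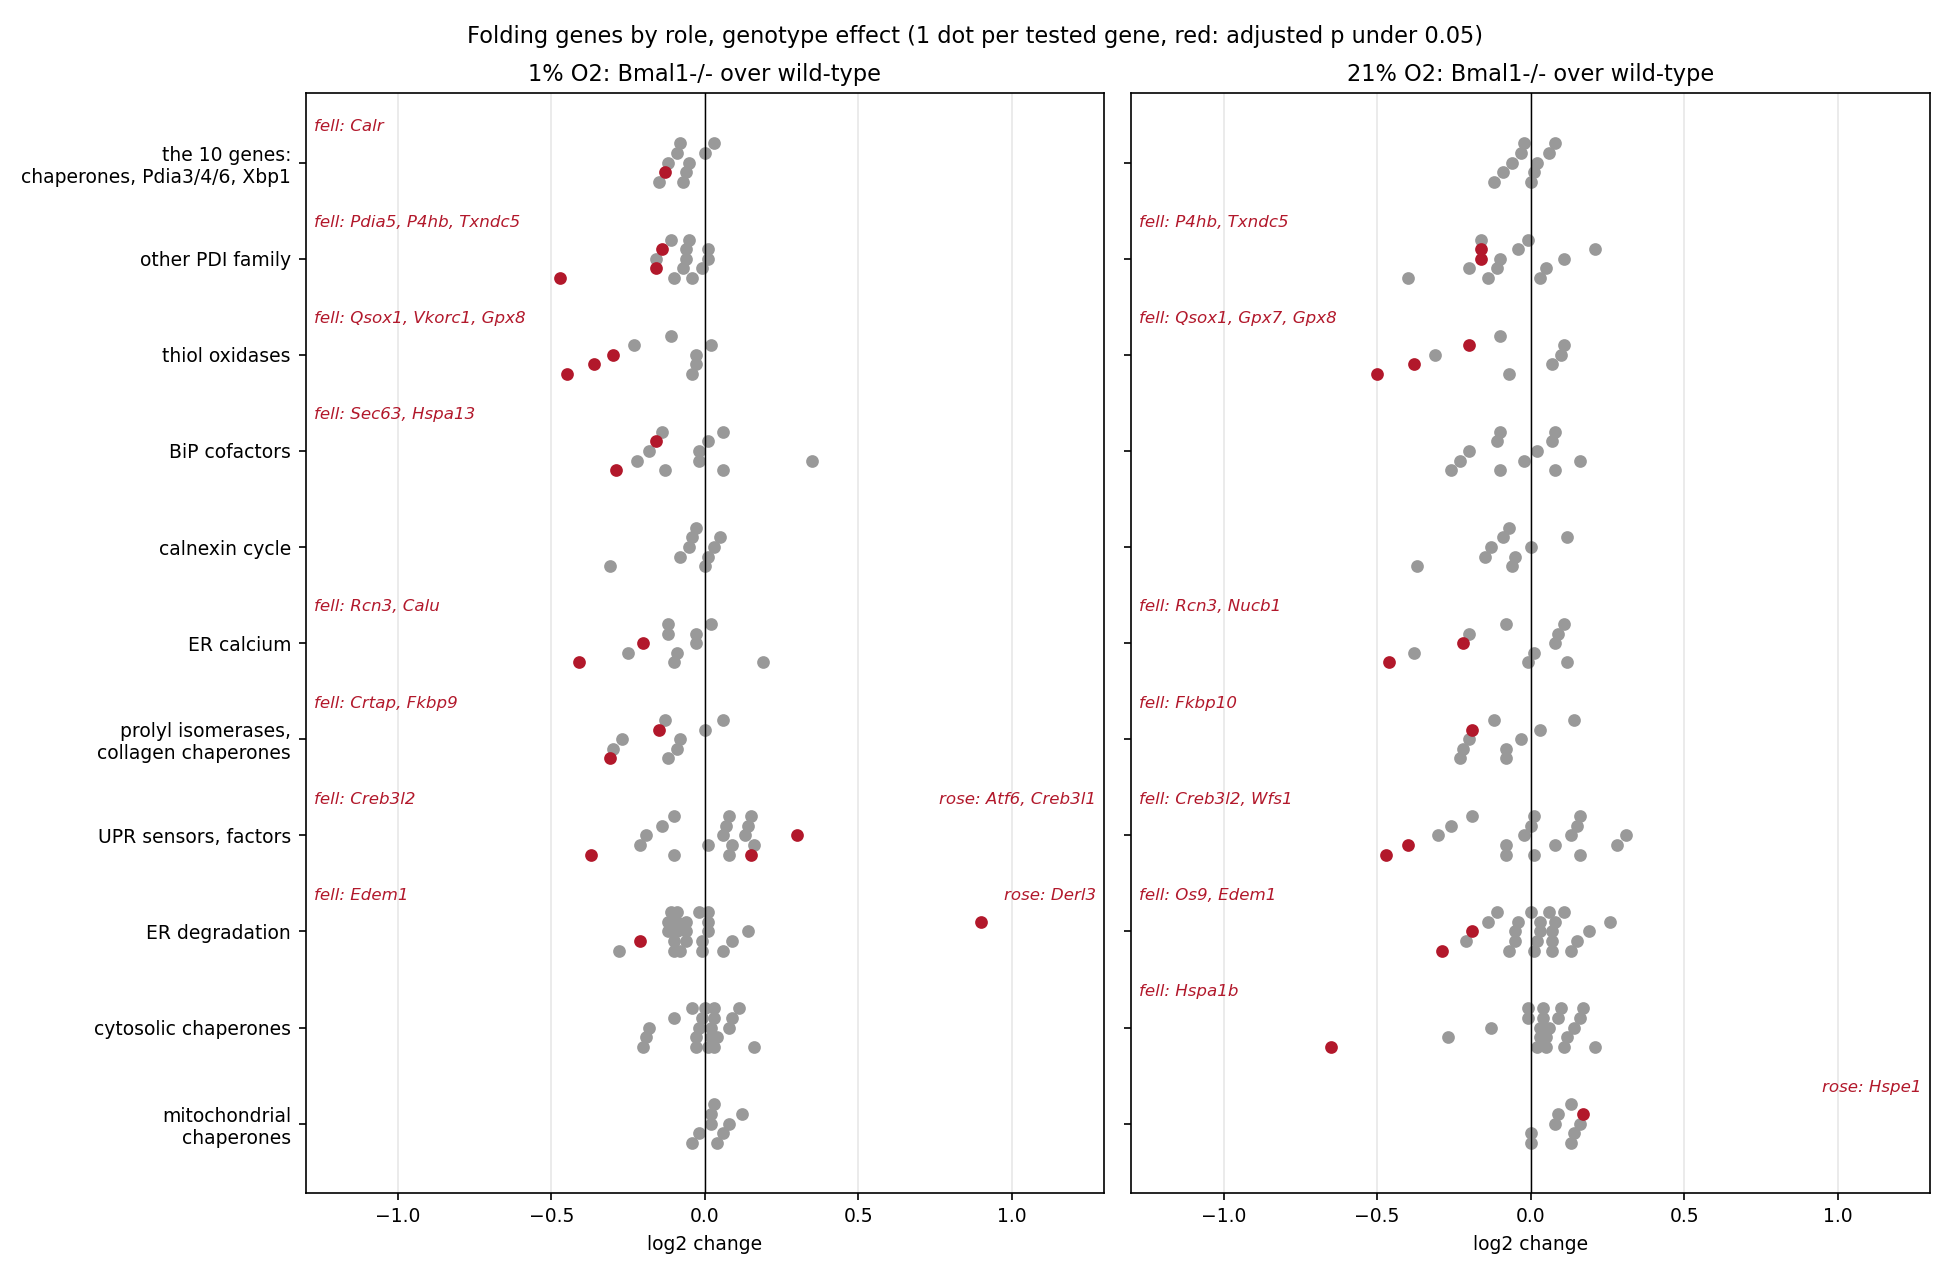
Log2 difference of Bmal1-/- over wild-type cells (horizontal axis) for each tested gene, by role (rows), at 1% O2 on the left and 21% O2 on the right. Red points passed an adjusted p of 0.05 and are named in the row; Qsox1 (-0.45 and -0.50) and Rcn3 (-0.41 and -0.46) are low in both panels.

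Chaperones of other compartments were followed for comparison. Of 21 cytosolic chaperone genes, limma and edgeR called 0 in either oxygen comparison, with 6 at an unadjusted p under 0.05 in each. Of all tested genes, limma called 4.09% in Bmal1-/- hypoxia and 2.17% in wild-type hypoxia, so 0 of 21 does not set this list apart. DESeq2 called Hsph1 and Hspb1 higher in Bmal1-/- cells and Hsp90aa1 in wild-type cells. Hspa1b, an inducible HSP70 whose reads cannot be securely split from its near-identical copy Hspa1a, fell in Bmal1-/- normoxia against wild-type normoxia by 0.65 (adjusted p = 0.0186); this was lost without Bmal1-/- normoxia replicate 1 (0.0614) or 2 (0.0506) or wild-type normoxia replicate 1 (0.0981) or 2 (0.106). Of 9 mitochondrial genes, the protease-chaperone Lonp1 rose in hypoxia by 0.29 in Bmal1-/- cells (adjusted p = 0.00746) and by 0.43 in wild-type cells (adjusted p = 0.00127), and kept both calls without each library in turn. Hspe1, the cofactor of mitochondrial HSP60, rose in Bmal1-/- normoxia by 0.17 (adjusted p = 0.0481), a call lost in 8 of the 11 fits without 1 library and kept without Bmal1-/- normoxia replicate 3 and wild-type hypoxia replicates 1 and 3.

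Within the family, the genes varied together to different degrees over the 11 libraries. Pearson's r with the family's mean centred log2 value, which includes the gene itself, was 0.935 for Calr, 0.906 for Hsp90b1, 0.891 for Canx and 0.879 for Pdia6, and lower for Pdia3 (0.762), Hspa5 (0.759), Pdia4 (0.751), Xbp1 (0.594) and Dnajb9 (0.452). Hyou1 stood apart at -0.136. Of 11459 other tested genes with a mean of at least 50, those most like the family mean were Klf6, a zinc-finger transcription factor (r = 0.952), Tm9sf1 (0.936), the reticulon Rtn4 that shapes ER tubules (0.932), the small GTPase Arl3 (0.921) and the small GTPase Rap1b (0.915). These are descriptions over 11 libraries that share groups and depth differences, and the 5 genes were the highest of many.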

How the data were processed

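Libraries (11) were made from primary mouse myoblast RNA with a stranded total RNA kit, per the labels' protocols. The submitters' processing notes name bcl2fastq, STAR, Picard, HTSeq, RSEM, DESeq2 and the build mm10; the order of these steps, their versions and the strand setting of counting are not given in the sources used here. The deposited values are a signal per gene, that is, reads counted per gene and scaled by each library's size factor, as deposited by the authors. All values (100%) were whole reads within 0.01 once the factor was undone, so totals of 18707697 to 33613328 reads per library could be recovered. The authors' columns were tied to samples by their names, and all were used.

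Tests used limma 3.58.1 with a variance trend in R 4.3.3 on log2(value + 1). The model had 4 groups, all 11 libraries and no covariate. A gene was tested if it reached 10 in 2 or more libraries, as 14729 did (7 residual and 6.35 prior degrees of freedom), two-sided, and Benjamini-Hochberg adjustment ran over all of them. A call is an adjusted p under 0.05. Counts at an unadjusted p under 0.05 stand without the share of all tested genes at that cut. They therefore cannot show whether there was an excess over other genes. Fold changes are on the log2(value + 1) scale, which understates changes of low genes. The median standard error of a log2 change was 0.10 to 0.11, and 0.15 for the difference between oxygen effects. Alternatives were edgeR 4.0.16 (quasi-likelihood, TMM) and DESeq2 1.42.0 on recovered reads, limma on TMM-scaled values or without the trend, pseudocounts of 0.5 and 5, no filter or one at 50, only the groups compared, and leaving out each library; with 1 library left in a group, that library is assumed to vary like the other groups. The fitting code was tested on simulated data. Same-group libraries differed beyond sampling noise (chi-square over degrees of freedom 4.59 to 22.6). All were counted as separate libraries, but that spread does not show that they came from separate animals or cultures.

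The rule for named genes covered all 10 family genes, Arntl, the 6 hypoxia check genes, up to 4 called genes per other list and comparison by adjusted p, and the 5 genes most like the family mean. Other genes were named outside this rule, with their values seen. They include Lum, Dcn, Rgs5, Abcc9, Myod1, Ero1lb, Hsph1, Hspb1 and Hsp90aa1, besides those said above to be looked at after their values were seen. The members and lists were chosen with earlier results of these data known. Positions, types and lengths come from GENCODE M21 (GRCm38), and promoter windows from RefSeq (GRCm38.p6), matched by symbol; 9 of 10 genes matched, and Hyou1 is named only. Replicates were numbered in order of listing.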

Additional observations from a re-analysis of the deposited data

How the results depend on the processing

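The family count was small and turned on single genes. In wild-type hypoxia the 1 gene called higher became 0 without the variance trend and 0 with only the groups compared, and 0 to 1 when a library was left out. Between genotypes in hypoxia the 1 called lower became 2 with a pseudocount of 5, 2 with a filter at 50, 2 on TMM-scaled values, 2 by edgeR and 2 by DESeq2, against 0 without the trend, and 0 to 2 when a library was left out. Of the family's log2 changes, 432 of those under other settings kept direction and side of the threshold, 5 newly passed and 3 no longer passed; when a library was left out 530 did, 1 newly passed, 8 no longer passed and 11 changed sign. Direction was compared after rounding to 2 decimals, so a change that rounded to 0 was not counted as a sign change. The 11 that changed sign were all uncalled. In Bmal1-/- hypoxia Dnajb9 ranged from -0.11 to 0.11 and Pdia4 from -0.02 to 0.01. Between genotypes in normoxia Dnajb9 ranged from -0.02 to 0.20 (also -0.01), Pdia4 from -0.02 to 0.04 (also -0.01) and Pdia6 from -0.03 to 0.06. For the difference between oxygen effects Dnajb9 ranged from -0.19 to 0.02 (also 0.01). The cause was not tested. Over the 8 ER lists, the 3 higher in wild-type hypoxia were 1 without the trend and 1 with only the groups compared; the 12 lower between genotypes in normoxia were 4 with only the groups compared; the 14 lower in hypoxia were 7 without the trend, and the 3 higher were 1 without a filter or trend and 0 with only the groups compared. Of all tested genes, 69 were lower in wild-type hypoxia, 32 without the trend and 18 to 36 in the fits without 1 library that differed most. In Bmal1-/- hypoxia 464 higher and 138 lower became 288 and 63 without the trend. The 506 higher between genotypes in normoxia became 319 without the trend and 294 with only the groups compared. Without wild-type normoxia replicate 1 or 2, these 506 became 246 or 229, the 833 lower became 532 or 439, and the 251 higher in wild-type hypoxia became 153 or 143. The 464 higher in Bmal1-/- hypoxia became 303 without Bmal1-/- hypoxia replicate 3 and 304 without Bmal1-/- normoxia replicate 1, and the 138 lower became 64 to 76 in 5 such fits. The 506 also became 312 without Bmal1-/- normoxia replicate 2, and the 491 higher between genotypes in hypoxia became 318 or 325 without replicate 2 of Bmal1-/- or wild-type hypoxia. The shares of all tested genes called, printed beside the members' counts, move with these. No scaling moved the median of all genes by 0.1 on the log2 scale. No paired analysis was possible because the labels give no replicate numbers. Wild-type normoxia had only 2 libraries, which limits every comparison that uses it.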
